A study of Mus musculus with 6 samples.

Results

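Collagens are the most abundant proteins of the extracellular matrix, and each molecule is a triple helix of chains encoded by separate genes. Fibrillar collagens form the cables of connective tissue, type IV collagen forms the sheet-like network of basement membranes, and the remaining types decorate fibrils, build beaded filaments and smaller networks, or span the cell membrane. Breast cancer cells meet a collagen matrix in the mammary stroma and again in the organs they colonise, and they can make collagens themselves. The collagen chain genes described here were all genes whose symbol on the array is Col, a type number, the letter a and a chain number, taken from transcript clusters (the probe groups that stand for a gene on the array) with exactly 1 gene symbol, with the cluster of highest mean signal kept for each gene. There were 44 such genes among the 22180 genes with 1 symbol, of which 11 encode fibrillar chains, 8 encode chains of basement membranes (Col4a1 to Col4a6, Col15a1 and Col18a1) and 25 encode other chains.

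The genes were measured in D2.OR cells, a mouse mammary cancer line of the D2.HAN series that stays latent after it has spread, on 6 Affymetrix Mouse Gene 2.0 ST arrays with 2 biological replicates in each of 3 groups. Parental cells carried the empty vector as control. BORG cells carried a stable transgene for the full-length mouse long noncoding RNA BORG, selected after transfection. BORG/sgTRIM28 cells carried the same BORG transgene and a CRISPR/Cas9 knockout of TRIM28, a protein that BORG binds, made with a lentiviral guide. No group with a knockout but without BORG, and no group with a control guide, was analysed here, and whether the knockout line was 1 clone was not given in the sources used here. All 3 groups were of the same luciferase-marked line, grown for 7 days in 3D-culture on Cultrex, a reconstituted basement membrane extract. The comparisons read which transcripts differ between BORG and parental cells and which differ between BORG and BORG/sgTRIM28 cells. Effects of BORG or of TRIM28 loss cannot be told apart here from other differences between the lines, such as vectors and selection. Signals are on the log2 scale, so that a difference of 1 is a doubling. A gene was called changed where its adjusted p in limma was under 0.05 over all 41345 clusters, and no cluster was left out as dim. With 2 arrays in each group, the smallest p of an exact permutation test is 0.333, so single-gene statements rest on the fit across all clusters. The arrays read RNA from whole cultures, in which fewer cells of a type and less RNA per cell cannot be told apart.

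The arrays were alike in scale, with medians of 5.18 to 5.24 and highest signals of 13.7, and correlated at 0.989 to 0.992 within a group. Trim28, the targeted gene, read 10.49 and 10.68 in parental cells, 9.88 and 9.96 in BORG cells and 9.50 and 9.53 in BORG/sgTRIM28 cells. Against parental cells, BORG cells had less Trim28 signal (-0.67 ± 0.12, SE; adjusted p = 0.0271 in limma), a call lost in 5 of 11 alternative limma fits (adjusted p up to 0.17). The knockout arrays were the lowest, but the difference of BORG/sgTRIM28 from BORG did not pass the test (0.41 ± 0.12 higher in BORG; adjusted p = 0.0911). The knockout was made by a frameshift, which need not lower the transcript.

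BORG expression was accompanied by a rise in a limited set of collagen genes, and the same genes were lower again where TRIM28 was knocked out. In BORG against parental cells 10 of the 44 collagen genes (22.7%) rose and 0 fell, where 4.12% of all clusters were called higher (5.75% of all genes with 1 symbol) and 2.98% lower. In BORG against BORG/sgTRIM28 cells the same 10 genes were higher in BORG and 0 were lower, where 5.31% of all clusters were called higher (7.44% of all genes with 1 symbol) and 4.24% lower. Since both comparisons use the BORG arrays, they are not independent of each other. In BORG/sgTRIM28 against parental cells 1 gene, Col5a3, fell and 0 rose, where 0.0726% of all clusters were called lower and 0.0484% higher. At an unadjusted p under 0.05 in limma the numbers of collagen genes, in either direction, were 15, 16 and 7. The share of all clusters at this threshold was not counted. Against parental, Col5a2, Col9a3, Col20a1 and Col24a1 among them were lower in BORG. Against the knockout, the same genes and Col11a2 and Col26a1 were lower in BORG.

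The 10 genes came from each class. Of the fibrillar chains 3 of 11 (Col1a1, Col5a1 and Col5a3) rose in BORG against parental cells, of the basement membrane chains 2 of 8 (Col4a5 and Col18a1), and of the other chains 5 of 25 (Col6a1, Col6a2, Col6a3, Col8a1 and Col12a1). All 10 were among the 29 collagen genes whose mean signal was above the median of all clusters, so that the share there was 34.5%, where 7.67% of all clusters above the median were called higher. The other 15 collagen genes were dimmer and 0 of them were called in either direction in any comparison. Calls were rare among dim clusters in general. Of the 1702 clusters called higher in BORG against parental cells, 1586 were above the median. The lack of calls in these 15 genes therefore does not set collagens apart. The median of the whole family lay near that of the array, with a change from parental to BORG of -0.02 over the 44 genes and -0.03 over all clusters. The median was 0.00 for fibrillar, 0.04 for basement membrane and -0.08 for other chains. From BORG/sgTRIM28 to BORG the medians were -0.10, -0.01 and -0.07 in the same order, against -0.05 over all clusters. The count for BORG against parental dropped to 6 of these 10 without parental replicate 1 and to 6 without parental replicate 2, the count for BORG against BORG/sgTRIM28 dropped to 6 without BORG/sgTRIM28 replicate 2, and Col5a3 no longer passed in BORG/sgTRIM28 against parental when any 1 of the 6 arrays was left out.

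**Figure D1:**
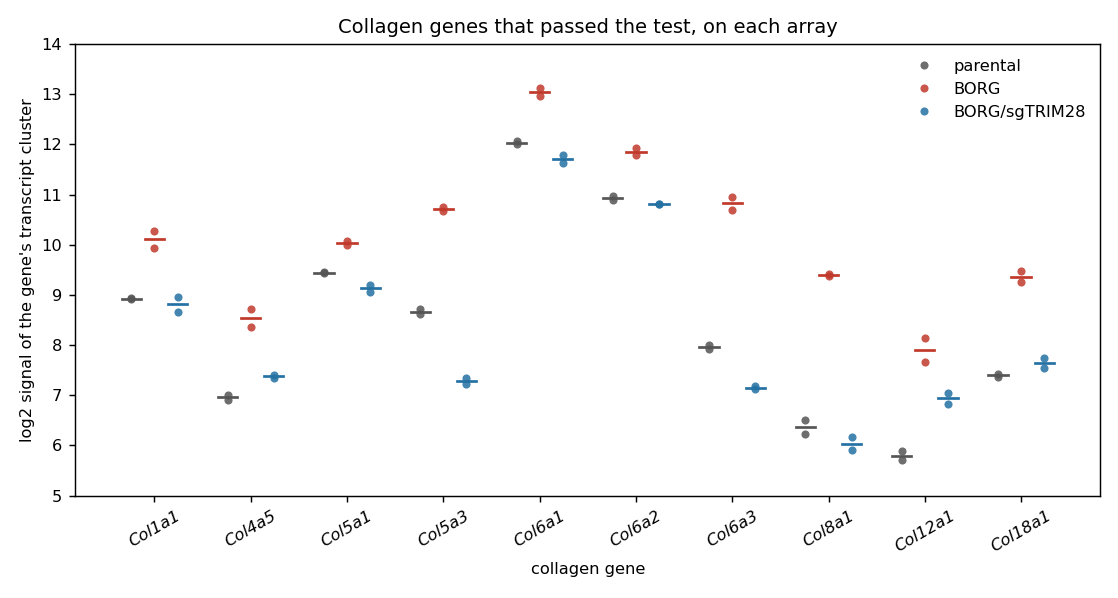
Log2 signal (vertical axis) of the 10 collagen genes called in any comparison (horizontal axis) on each of the 6 arrays. Points are arrays, short lines are group means of 2 arrays. For every gene both BORG arrays lie above the 2 parental and the 2 BORG/sgTRIM28 arrays. The genes were chosen for being called, which favours such a separation, and its share over all clusters was not counted. In Col5a3 the BORG/sgTRIM28 arrays (7.35 and 7.23) lie below the parental ones (8.71 and 8.62). Heights of different genes are not comparable, since each gene has its own probes.

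The sequence before the start is shown for Col5a3, Col6a3 and Col8a1, which had the largest differences of the family between BORG and the knockout. It is also shown for the neighbours Col4a5 and Col4a6, of which the first was called and the second was not. The stretches are RefSeq sequence of build GRCm38.p6, written in the direction of the gene and ending at the base before the outermost annotated start. They lie at chr9:20815118-20815317 (minus strand), chr1:90844002-90844221 (minus strand), chr16:57754738-57754987 (minus strand), chrX:141475169-141475369 (plus strand) and chrX:141474096-141474326 (minus strand). Capitals mark the motifs found, CCAAT and the GC box GGGCGG, on either strand, so that the GC box reads CCGCCC where it is on the other strand.
Col5a3: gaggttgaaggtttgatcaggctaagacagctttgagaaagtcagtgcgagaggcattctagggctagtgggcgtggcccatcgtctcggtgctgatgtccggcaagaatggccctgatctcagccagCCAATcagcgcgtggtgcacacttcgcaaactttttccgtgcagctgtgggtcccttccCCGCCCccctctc
Col6a3: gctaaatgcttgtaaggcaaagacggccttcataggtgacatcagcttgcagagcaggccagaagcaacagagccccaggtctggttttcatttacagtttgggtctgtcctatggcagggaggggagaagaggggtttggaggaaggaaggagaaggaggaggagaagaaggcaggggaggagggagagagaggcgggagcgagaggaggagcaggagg
Col8a1: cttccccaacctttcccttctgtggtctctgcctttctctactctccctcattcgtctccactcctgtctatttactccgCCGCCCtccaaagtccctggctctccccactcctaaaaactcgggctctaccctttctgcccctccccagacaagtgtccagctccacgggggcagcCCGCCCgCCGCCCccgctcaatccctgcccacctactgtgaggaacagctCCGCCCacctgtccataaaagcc
Col4a5: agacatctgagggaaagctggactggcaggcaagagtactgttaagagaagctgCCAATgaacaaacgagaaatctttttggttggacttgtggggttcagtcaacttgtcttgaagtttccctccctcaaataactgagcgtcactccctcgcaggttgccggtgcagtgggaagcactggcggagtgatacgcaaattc
Col4a6: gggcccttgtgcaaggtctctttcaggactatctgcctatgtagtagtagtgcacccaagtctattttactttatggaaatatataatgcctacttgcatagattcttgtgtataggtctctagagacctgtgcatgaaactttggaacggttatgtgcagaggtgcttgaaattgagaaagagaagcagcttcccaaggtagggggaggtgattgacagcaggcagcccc
The stretch before Col8a1 holds 4 GC boxes and no CCAAT, that before Col5a3 holds 1 of each, that before Col4a5 holds 1 CCAAT, and those before Col6a3 and Col4a6 hold none of the motifs searched. The stretches shown differ in length, from 200 to 250 bases, so these numbers do not compare the genes. The motifs searched were the TATA box (letters TATAAA), the CCAAT box, the GC box (letters GGGCGG), the AP-1 site (letters TGANTCA) and the hypoxia response core (letters ACGTG), on both strands, and no match lay across another. In the full RefSeq windows (250 bases before to 50 after a start), which exist for 35 of the 44 collagen genes, GGGCGG was present in 22 genes (62.9%) against 35.7% of all 32851 windows. It was present in 6 of the 8 called genes with a window and in 16 of the 27 others. The full windows of both Col4a5 and Col4a6 held it, although the stretches shown for them did not. CCAAT was present in 13 of 35 (37.4% of all windows), TATAAA in 5 (13.6%), ACGTG in 5 (19.6%) and TGANTCA only in Col6a1 (7.81%). The median GC content was 60.4% in the called genes, 60.0% in the other collagen genes and 52.7% over all windows. These matches describe the letters and were not tested as binding sites.

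Among the fibrillar chains, those of type V collagen differed in how far they changed, and differences between chains were not tested. Type V collagen starts and limits the growth of type I fibrils. Col5a3, on chromosome 9 (20770050 to 20815117 in GRCm38.p6), read 8.71 and 8.62 in parental, 10.75 and 10.68 in BORG and 7.35 and 7.23 in BORG/sgTRIM28 cells. The 3 groups did not overlap, with BORG highest and the knockout below the control. Col5a3 was 4.15-fold higher in BORG than in parental cells (log2 change 2.05 ± 0.11, SE; adjusted p = 0.000962) and 10.7-fold higher than in BORG/sgTRIM28 cells (3.42 ± 0.11; adjusted p = 0.000322). It was also the collagen gene that differed between BORG/sgTRIM28 and parental cells (-1.37 ± 0.11; adjusted p = 0.0244). That last call was lost in 6 of 11 alternative limma fits, with an adjusted p of up to 0.258.

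Col5a1, which encodes the chain common to most type V molecules, changed less. It read 9.45 and 9.43 in parental, 10.08 and 9.99 in BORG and 9.20 and 9.06 in BORG/sgTRIM28 cells. The rise over parental was 0.60 ± 0.11 (adjusted p = 0.0339) and the difference from the knockout 0.90 ± 0.11 (adjusted p = 0.00825). The first of these was lost in 6 of 11 alternative limma fits (adjusted p up to 0.184), and a second, dimmer cluster of Col5a1 did not show it (-0.11 ± 0.13; adjusted p = 0.726). Col5a2, whose chain joins Col5a1 in the usual type V molecule, read 5.12 and 5.28 in parental, 4.81 and 4.98 in BORG and 5.24 and 5.26 in knockout cells, near the array medians and with no call (-0.30, 95% interval -0.60 to -0.01, against parental).

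Col1a1 encodes the major chain of type I collagen, the main fibril of stroma and bone. Its signal was 8.93 and 8.91 in parental, 10.27 and 9.94 in BORG and 8.96 and 8.66 in BORG/sgTRIM28 cells. The 2 parental and 2 knockout arrays overlapped and both BORG arrays were higher. The rise over parental was 2.27-fold (1.18 ± 0.16; adjusted p = 0.014) and that over the knockout 2.45-fold (1.29 ± 0.16; adjusted p = 0.00866), while the knockout differed from parental by -0.11 (95% interval -0.51 to 0.29). The call against parental was lost without BORG replicate 1, without parental replicate 1 and without parental replicate 2, with an adjusted p of up to 0.1. Col1a2, whose chain completes the type I heterotrimer, read 5.20 and 5.06, 5.00 and 5.27, and 5.13 and 5.34 in parental, BORG and knockout cells, with a change against parental of 0.00 (95% interval -0.35 to 0.36). Its signal thus lay at the median of all clusters in every group. Col3a1, the chain of type III collagen, lay between 4.57 and 5.12 on all arrays and was not called. The remaining fibrillar chains (Col2a1, Col11a1, Col11a2, Col24a1 and Col27a1) were not called either. Against parental, the lowest change among them was that of Col24a1 (-0.42; adjusted p = 0.0753) and the highest that of Col27a1 (0.27; adjusted p = 0.336).

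Of the basement membrane chains, Col4a5 and Col18a1 rose while the most widely used type IV chains did not. Col4a5, a type IV chain found in selected basement membranes such as those of kidney and skin, read 7.00 and 6.91 in parental, 8.72 and 8.35 in BORG and 7.34 and 7.41 in knockout cells. It was 2.99-fold higher in BORG than in parental cells (1.58 ± 0.15; adjusted p = 0.00431) and 2.24-fold higher than in the knockout (1.16 ± 0.15; adjusted p = 0.00904). The knockout arrays lay between the other groups and were 0.42 above parental (95% interval 0.05 to 0.78; adjusted p = 0.524). The call against the knockout was lost without BORG/sgTRIM28 replicate 1 and without BORG/sgTRIM28 replicate 2, with an adjusted p of up to 0.0689.

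Col4a6 lies head to head with Col4a5 on chromosome X, with 1343 bases between the transcript starts of the RefSeq windows, and its chain can join that of Col4a5. Its signal was 4.48 and 4.42 in parental, 4.63 and 4.48 in BORG and 4.66 and 4.59 in knockout cells, with a change of 0.11 (95% interval -0.17 to 0.39) from parental to BORG. Col4a1 and Col4a2 encode the chains of nearly all basement membranes. Col4a1 read 6.14 and 5.88 in parental, 6.16 and 5.91 in BORG and 6.06 and 6.06 in knockout cells, a change of 0.02 (95% interval -0.33 to 0.38) from parental to BORG. Col4a2 changed by -0.14 (95% interval -0.51 to 0.22). Col4a3, Col4a4 and Col15a1 lay between 4.51 and 5.05 on every array and were not called.

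Col18a1 encodes a proteoglycan collagen of basement membranes from whose end endostatin, an inhibitor of vessel growth, is released. It read 7.36 and 7.43 in parental, 9.48 and 9.25 in BORG and 7.75 and 7.55 in knockout cells. The BORG arrays stood well above the other 4, and the knockout arrays were slightly above the parental ones. The rise was 3.91-fold over parental (1.97 ± 0.14; adjusted p = 0.00187) and 3.27-fold over the knockout (1.71 ± 0.14; adjusted p = 0.00194), and the knockout differed from parental by 0.25 (95% interval -0.08 to 0.59). The probes read the whole gene and do not separate its isoforms.

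Type VI collagen forms beaded filaments close to the cell surface. Of the 6 type VI genes, Col6a1, Col6a2 and Col6a3 rose, and these are the chains of the classical heterotrimer. Col6a3, the largest of them, read 8.01 and 7.92 in parental, 10.96 and 10.69 in BORG and 7.18 and 7.12 in knockout cells. It was 7.26-fold higher in BORG than in parental cells (2.86 ± 0.13; adjusted p = 0.000711) and 12.8-fold higher than in the knockout (3.67 ± 0.13; adjusted p = 0.000324). The knockout arrays were both below the parental ones (-0.81 ± 0.13), a difference that did not pass the test over all clusters (adjusted p = 0.151) and passed where 1 cluster per gene was tested (adjusted p = 0.0421).

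Col6a1 and Col6a2, neighbours on chromosome 10, changed by less. Col6a1 read 12.06 and 12.00 in parental, 13.12 and 12.97 in BORG and 11.63 and 11.79 in knockout cells, close to the highest signals on the arrays. Its rise was 2.02-fold over parental (1.01 ± 0.12; adjusted p = 0.00877) and 2.53-fold over the knockout (1.34 ± 0.12; adjusted p = 0.00284). A second, dimmer cluster of Col6a1 rose by 1.35 ± 0.12 over parental (adjusted p = 0.00369). Col6a2 read 10.97 and 10.89 in parental, 11.93 and 11.78 in BORG and 10.82 and 10.81 in knockout cells. Its rise was 1.89-fold over parental (0.92 ± 0.11; adjusted p = 0.00926) and 2.05-fold over the knockout (1.04 ± 0.11; adjusted p = 0.00522). Both calls against parental were lost without parental replicate 1 and without parental replicate 2 (adjusted p up to 0.0792 for Col6a1 and 0.0853 for Col6a2). Col6a4, Col6a5 and Col6a6, whose chains can stand in for that of Col6a3, lay between 4.51 and 5.70 on every array and were not called.

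Col8a1 had the largest rise of the family over parental cells. It encodes a short chain that builds the lattice of the corneal Descemet's membrane and is made by vessel walls under repair. It read 6.23 and 6.51 in parental, 9.38 and 9.42 in BORG and 6.16 and 5.91 in knockout cells. The difference was 8.18-fold from parental (3.03 ± 0.15; adjusted p = 0.000865) and 10.3-fold from the knockout (3.37 ± 0.15; adjusted p = 0.000401). The knockout differed from parental by -0.33 (95% interval -0.70 to 0.03). Col8a2, the partner chain, changed by -0.02 (95% interval -0.41 to 0.38).

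In the knockout Col12a1 was further above parental cells than any other collagen gene, without passing the test over all clusters. It encodes a chain that lies along type I fibrils and belongs to the fibril-associated collagens with interrupted triple helices (FACIT). The signal was 5.71 and 5.88 in parental, 8.15 and 7.66 in BORG and 7.05 and 6.83 in knockout cells. The knockout arrays lay between the other groups without overlap, as they did for Col4a5 and Col18a1. The gene was 4.31-fold higher in BORG than in parental cells (2.11 ± 0.19; adjusted p = 0.00385) and 1.95-fold higher than in the knockout (0.96 ± 0.19; adjusted p = 0.034), and the knockout was 1.15 ± 0.19 above parental (adjusted p = 0.168). The call against the knockout was lost in 4 of 11 alternative limma fits (adjusted p up to 0.161), and the difference of the knockout from parental passed where 1 cluster per gene was tested (adjusted p = 0.047).

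Across the 10 genes the knockout mean was below the parental mean in 7 and above it in 3 (Col4a5, Col12a1 and Col18a1). BORG replicate 1 was above BORG replicate 2 in 9 of the 10, the exception being Col8a1, and so were 72.6% of all genes with 1 symbol called higher in BORG than in parental cells. Over all 44 collagen genes it was 23. Col1a1 and Col5a1 lost their call against the knockout without BORG/sgTRIM28 replicate 2 (adjusted p = 0.0611 and 0.0648). Col5a3, Col6a3, Col8a1 and Col18a1 passed the test in both comparisons with BORG in each of the 11 alternative limma fits. None of the 10 passed after adjustment under the methods' t-test, where the adjusted p of these 4 was 0.177 to 0.188 against parental and 0.156 to 0.216 against the knockout.

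**Figure D2:**
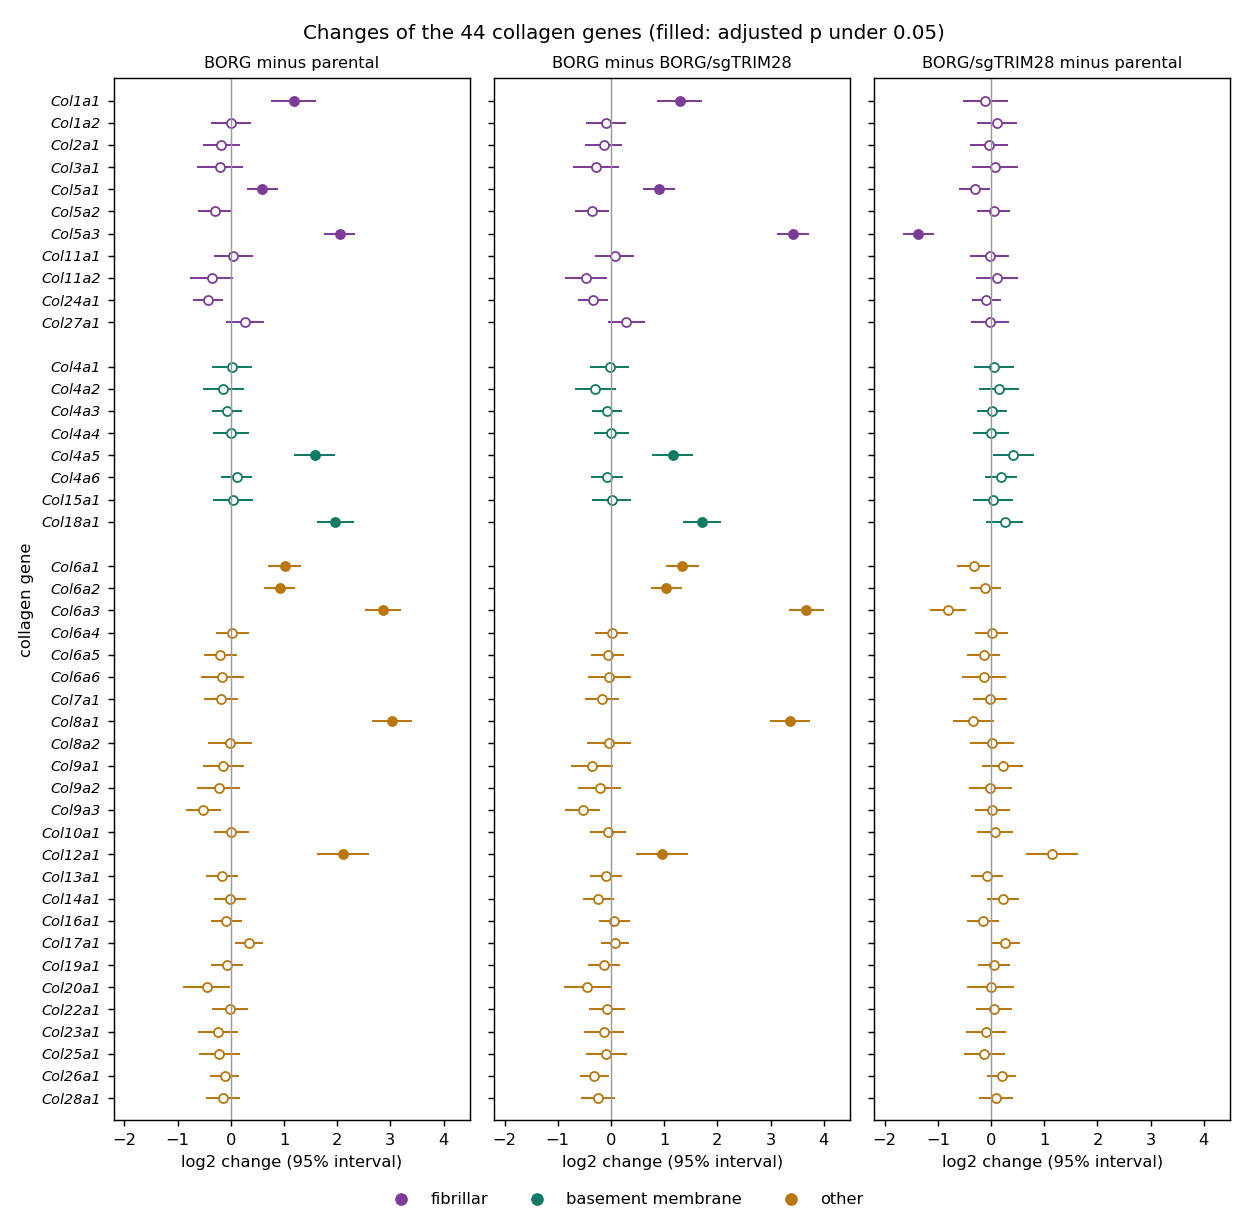
Log2 change (horizontal axes) with its 95% interval for each of the 44 collagen genes (vertical axis, grouped by class and coloured) in the 3 comparisons. Filled points have an adjusted p under 0.05 and open points do not; 10 filled points stand in each of the 2 comparisons with BORG and 1, Col5a3 at -1.37, in BORG/sgTRIM28 minus parental.

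The 34 collagen genes without a call were picked for having none, which in itself narrows their range. The median change over all clusters was below 0 in both comparisons with BORG (-0.03 and -0.05). The share of all clusters below 0 was not counted. From parental to BORG the changes of these 34 genes lay between -0.52 and 0.34 and were below 0 in 24 of them. From BORG/sgTRIM28 to BORG they lay between -0.53 and 0.29 and were below 0 in 27. The lowest was Col9a3, a FACIT chain of cartilage, which read 6.35 and 6.15 in parental, 5.81 and 5.66 in BORG and 6.32 and 6.22 in knockout cells. Both BORG arrays were below the other 4, but neither difference passed over all clusters (-0.52, adjusted p = 0.0706, and -0.53, adjusted p = 0.0549). The highest against parental was Col17a1, a transmembrane collagen of hemidesmosomes (0.34; adjusted p = 0.12). Col7a1, the chain of the anchoring fibrils of skin, changed by -0.19. Of the 9 FACIT chains Col12a1 alone was called, and of the 4 transmembrane chains none was. The shares called higher over all genes with 1 symbol were 5.75% against parental and 7.44% against the knockout. Counts in groups this small do not set these chains apart.

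A collagen chain must be hydroxylated, glycosylated, folded, trimmed and cross-linked before it serves in the matrix, and several of the genes for these steps rose with BORG as well. Of 35 genes listed for collagen synthesis 31 were measured by a cluster with 1 symbol. Against parental cells 12 rose and 1 fell in BORG, against the knockout 12 were higher and 0 lower, and between knockout and parental cells 0 were called. Over all genes with 1 symbol, 5.75% were called higher against parental and 7.44% against the knockout. Prolyl 4-hydroxylase, which stabilises the triple helix, has a choice of catalytic subunits, and each of them rose. P4ha2 read 6.31 and 6.46 in parental, 8.83 and 7.98 in BORG and 6.57 and 6.35 in knockout cells (2.02 ± 0.27 over parental, adjusted p = 0.0133; 1.95 ± 0.27 over the knockout, adjusted p = 0.012). P4ha3 read 7.43 and 7.31, 9.09 and 8.52, and 6.63 and 6.41 in the same order of groups (1.44 ± 0.20 and 2.29 ± 0.20). P4ha1 rose by 1.25 over parental and was 1.04 above the knockout. The shared subunit P4hb changed by 0.01 (95% interval -0.28 to 0.31) over parental.

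Of the lysyl hydroxylases, which prepare lysines for cross-links, Plod1 rose by 1.42 ± 0.14 over parental and was 1.77 ± 0.14 above the knockout. Plod2 read 5.70 and 5.73 in parental, 7.56 and 6.89 in BORG and 6.35 and 6.13 in knockout cells, and rose by 1.51 ± 0.23 over parental (adjusted p = 0.0175), while its difference of 0.98 ± 0.23 from the knockout did not pass (adjusted p = 0.0503). P3h2, a prolyl 3-hydroxylase that acts on type IV collagen, fell by 0.73 from parental to BORG (adjusted p = 0.0395). Its knockout arrays (8.02 and 8.08) were near the BORG arrays (7.89 and 8.25) and below the parental ones (8.80 and 8.80). Serpinh1, the collagen chaperone HSP47, was lower on both BORG arrays (10.01 and 10.11 against 10.54 and 10.57), with an adjusted p of 0.0507.

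Of the 12 genes measured for propeptide removal and cross-linking, which take place mainly outside the cell, 6 rose against parental (Adamts14, Bmp1, Pcolce, Pxdn, Loxl3 and Loxl4). The other 6 (Adamts3, Tll1, Tll2, Pcolce2, Lox and Loxl1) were not called, with changes of -0.29 to 0.06. Adamts14, which removes amino-terminal propeptides, read 6.29 and 6.40 in parental, 8.37 and 8.31 in BORG and 6.46 and 6.46 in knockout cells, a rise of 1.99 ± 0.11 (adjusted p = 0.000962). Pcolce, which speeds the removal of carboxyl-terminal propeptides, rose by 1.59 ± 0.18, and Bmp1, the proteinase it assists, by 0.91 ± 0.12. Pxdn, which makes the sulfilimine cross-links of type IV collagen, read 9.18 and 9.18 in parental, 11.16 and 11.04 in BORG and 9.41 and 9.43 in knockout cells (1.92 ± 0.11; adjusted p = 0.000962). Loxl3, a lysyl oxidase, read 8.15 and 8.16, 9.71 and 9.24, and 6.84 and 6.66. It rose by 1.32 ± 0.18 over parental and was 2.73 ± 0.18 above the knockout. Its knockout arrays were below the parental ones, as for Col5a3 and Col6a3, without passing the test. P4ha2, P4ha3, Plod2, Pcolce and Loxl3 lost their call against parental without parental replicate 1 and without parental replicate 2, and P4ha2 that against the knockout without BORG/sgTRIM28 replicate 1 and without BORG/sgTRIM28 replicate 2.

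Of the 9 collagen receptors measured of 10 listed, 3 rose with BORG over parental cells and 0 fell, the same numbers were called against the knockout (5.75% and 7.44% of all genes with 1 symbol were called higher), and 0 between knockout and parental cells. Itga2, the collagen-binding integrin subunit, read 5.35 and 5.50 in parental, 7.77 and 8.45 in BORG and 5.53 and 5.50 in knockout cells (2.69 ± 0.23 over parental, adjusted p = 0.00297; 2.59 ± 0.23 over the knockout, adjusted p = 0.00259). Itgb1, its partner subunit, rose by 1.01 ± 0.10 and was 0.95 ± 0.10 above the knockout. Ddr1, a receptor tyrosine kinase for collagen, rose by 0.95 ± 0.11 and was 0.61 ± 0.11 above the knockout. Itgb1 and Ddr1 lost the call against parental without parental replicate 1 and without parental replicate 2, and Ddr1 lost the call against the knockout in 4 of 11 alternative limma fits (adjusted p up to 0.132).

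Of 16 matrix proteins that bind or lie beside collagens, 5 rose against parental, 4 were higher against the knockout, and 1 was higher in the knockout than in parental cells. None was called lower. The shares called higher in these comparisons were 5.75% and 7.44% of all genes with 1 symbol, and 0.0484% of all clusters for the knockout against parental. Tnc, the matricellular protein tenascin C, read 5.15 and 5.31 in parental, 7.84 and 7.33 in BORG and 5.80 and 5.53 in knockout cells (2.36 ± 0.20 and 1.92 ± 0.20). Sparc, which binds fibrillar collagen, rose by 1.14 ± 0.11 and was 0.96 ± 0.11 above the knockout. Hspg2, the basement membrane proteoglycan perlecan, rose by 0.66 ± 0.13 and was 1.23 ± 0.13 above the knockout. Fn1 and Thbs1 did not share this pattern. Fn1, encoding fibronectin, read 10.69 and 10.69 in parental, 12.02 and 11.80 in BORG and 12.20 and 11.98 in knockout cells, so that it was higher than parental in both (1.22 ± 0.13, adjusted p = 0.0072, and 1.40 ± 0.13, adjusted p = 0.0373). Thbs1, encoding thrombospondin, read 8.35 and 8.61, 9.83 and 9.65, and 9.71 and 9.62, and passed only against parental (1.26 ± 0.14; adjusted p = 0.00724). The call of Fn1 in the knockout was lost in 6 of 11 alternative limma fits (adjusted p up to 0.314), that of Hspg2 against parental in 6 of 11 (adjusted p up to 0.196). Tnxb, or tenascin X, was 0.88 ± 0.15 above the knockout and lost that call in 4 of 11 (adjusted p up to 0.118). Fn1 and Thbs1 lost the call against parental without parental replicate 1, Fn1 also without parental replicate 2, and Sparc lost that against the knockout without BORG/sgTRIM28 replicate 2 (adjusted p = 0.0509).

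**Figure D3:**
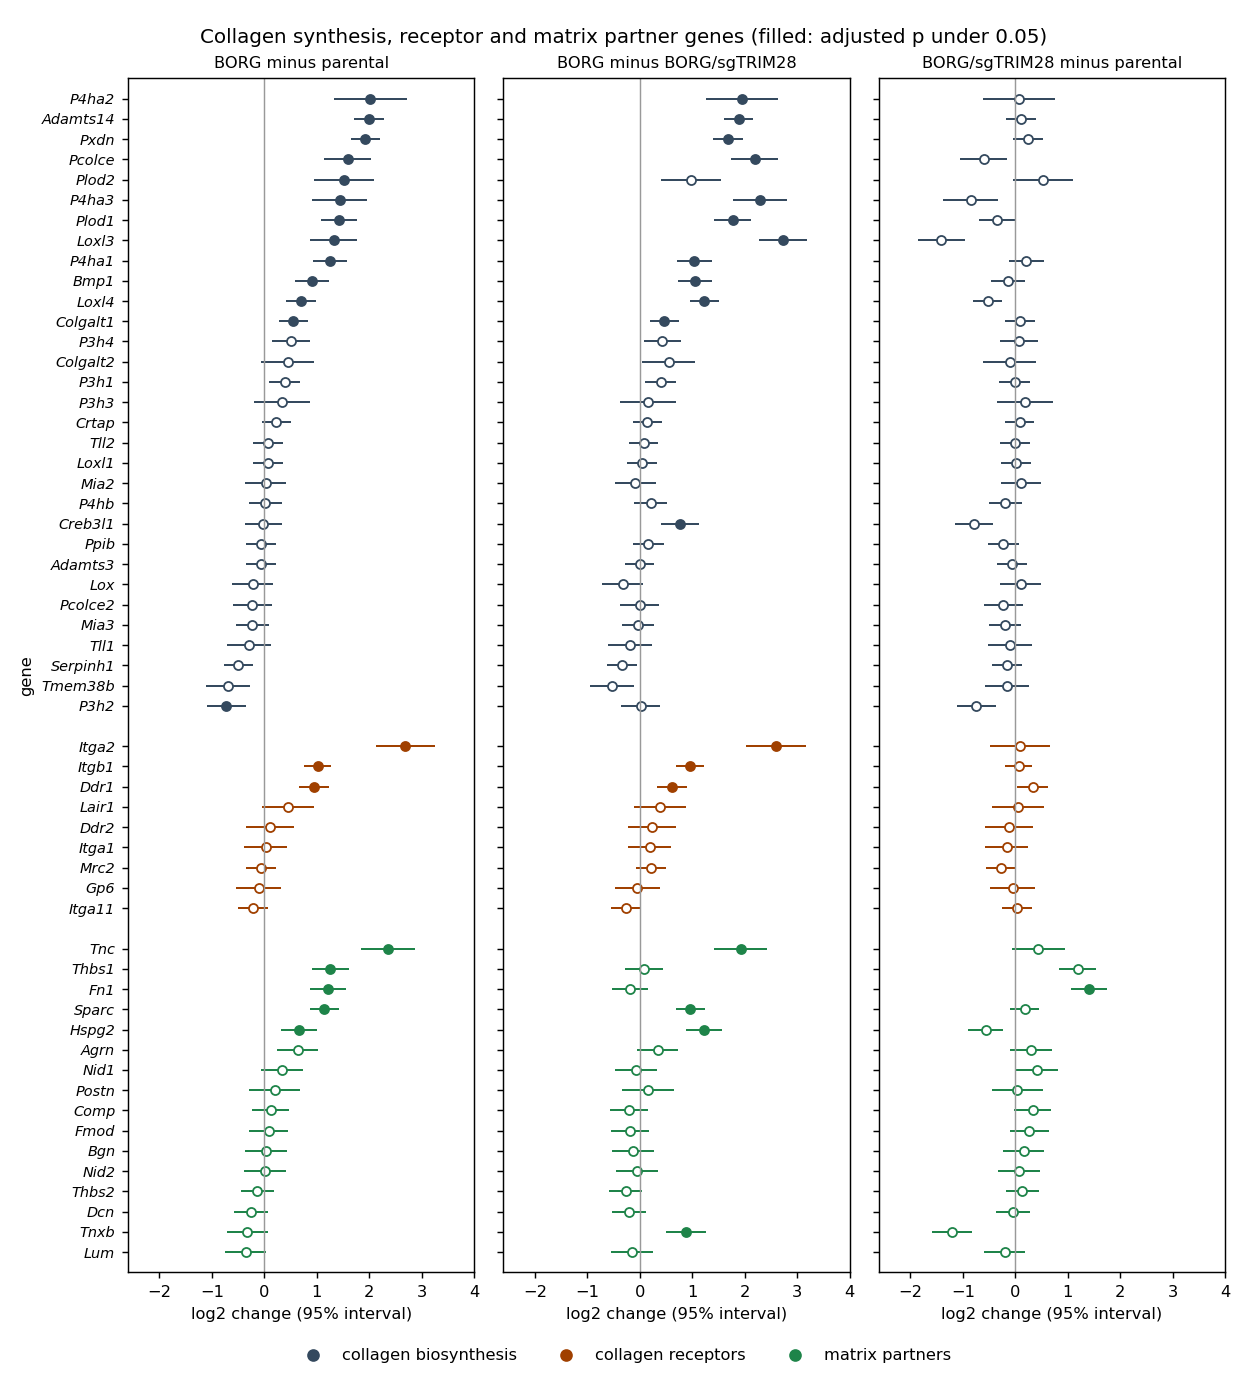
Log2 change (horizontal axes) with its 95% interval for the 31 collagen synthesis genes, 9 receptors and 16 matrix partners measured (vertical axis, coloured by list) in the 3 comparisons, filled where the adjusted p is under 0.05. In BORG minus parental 12, 3 and 5 genes of the lists are filled above 0 and P3h2 alone below it; in BORG/sgTRIM28 minus parental Fn1 alone is filled.

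Markers of the cell types a culture could hold were read beside these genes. Of 10 epithelial markers 2 rose in BORG against parental cells, the keratins Krt8 (9.55 and 9.73 to 11.09 and 10.81; 1.31 ± 0.14) and Krt18 (9.74 and 9.81 to 11.14 and 11.37; 1.49 ± 0.12), and both were also above the knockout. The mean log2 signal of the epithelial list was 6.14 to 6.16 in parental, 6.45 to 6.48 in BORG and 6.24 to 6.29 in knockout arrays. The defining epithelial genes Epcam (4.68 to 5.01 over all arrays) and Cdh1 (6.19 to 6.84) were not called. Of 10 fibroblast markers Pdgfrb rose (1.13 ± 0.17) and Pdgfra fell, from 12.28 and 12.29 to 10.93 and 11.15, and the list mean was 5.27 to 5.37 in parental, 5.15 to 5.25 in BORG and 5.21 to 5.23 in knockout arrays. Of 6 endothelial markers and of 5 leukocyte markers measured 0 were called in any comparison. Over all genes with 1 symbol, 5.75% were called higher in BORG against parental and 7.44% against the knockout. The shares called lower were 2.98% and 4.24% of all clusters. At such shares, 0 calls in lists this short do not show that a cell type was absent or unchanged. Of 6 adipocyte markers Pparg fell against parental (-0.55 ± 0.11) and was lower in BORG than in the knockout (-0.73 ± 0.11), and Fabp4 was higher in BORG than in the knockout (5.93 and 6.38 against 4.45 and 4.67; 1.60 ± 0.23, adjusted p = 0.013). The part of these differences in the collagen results was not tested.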

How the data were processed

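RNA from 2 cultures in each of 3 groups of D2.OR cells was measured on 6 arrays, which the labels call biological replicates; p-values measure the spread between these cultures. The authors deposited 1 log2 signal per transcript cluster and array, after normalization with Affymetrix Expression Console. Transcriptome Analysis Console is a further tool in the submitters' notes. Software versions, the summarization method and detection calls were not given in the sources used here, so no bound for dim genes was set. The number of arrays limits precision, and limits near the lowest and highest signals were not assessed. The deposited log2 values were used as they are.

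The platform annotation gave 1 gene symbol to 23521 of 41345 clusters. A model of 3 group means over all 6 arrays was fitted to all clusters in limma 3.58.1 (R 4.3.3) with eBayes (3 residual and 3.04 prior degrees of freedom), and p-values were adjusted by Benjamini-Hochberg over all clusters. Intervals are 95% and not adjusted. The fit was tested on simulated data. Positions and sequences are from RefSeq (GRCm38.p6), where all 44 collagen genes were found by Entrez ID.

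The members, classes and lists were chosen with earlier results of these data known. Values on every array were given for called collagen genes and Col4a1, of each list for up to 6 called genes with the largest change per comparison, and for Trim28. Other genes, mainly partner chains, were named after their values were seen. Alternatives were other scalings, a filter on dim clusters, 1 cluster per gene, the 4 arrays compared, a variance trend, the methods' t-test, a replicate block and leaving out each array. Leaving out an array of the group not compared gave the same test as the 4 arrays compared, and these were counted once, which left 11 alternative limma fits per gene beside the t-test.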

Additional observations from a re-analysis of the deposited data

How the results depend on the processing

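The 10 genes called for BORG against parental and the 10 for BORG against BORG/sgTRIM28 kept their direction under other scalings and with each array left out. The remaining alternatives use the same difference of group means, so they could not have altered the direction. Leaving out 1 array gave 6 to 9 collagen genes for BORG against parental, 6 to 10 for BORG against BORG/sgTRIM28 and 0 for BORG/sgTRIM28 against parental (at an unadjusted p under 0.05, 3 to 7 genes). The methods' t-test with Benjamini-Hochberg adjustment called 0 in each comparison, with 12, 13 and 7 at an unadjusted p under 0.05, and it called 0 over all clusters too. BORG/sgTRIM28 against parental gave 3 genes where 1 cluster per gene was tested (Col5a3, Col6a3 and Col12a1), 0 with only the 4 arrays of the groups compared (7 at an unadjusted p) and 0 with the replicate block (5 at an unadjusted p). With 1 cluster per gene 12 collagen genes were called for BORG against parental, of which 2, Col9a3 and Col24a1, were lower.

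Differences between replicate 1 and replicate 2 correlated at -0.04 to 0.04 between groups over all clusters. The labels give replicate numbers only, and these correlations cannot decide whether same-numbered cultures were handled together. The block gave 9 and 10 genes in the comparisons with BORG, and it lost Col5a1 and Hspg2 against parental and Col5a3 and Fn1 in BORG/sgTRIM28 against parental.

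With only clusters above the median signal, which drops dim members, the fibrillar and basement membrane medians were 0.266 and 0.801 for BORG against parental, 0.287 and 0.569 for BORG against BORG/sgTRIM28 and -0.0874 and 0.203 for BORG/sgTRIM28 against parental. The fibrillar medians were 0.0307, -0.0429 and -0.0568 with median centring and 0.0328, -0.0428 and -0.047 with quantile normalization. Leaving out 1 array gave fibrillar medians of -0.088 to 0.0969, -0.101 to 0.0352 and -0.121 to 0.007, and basement membrane medians of 0.0139 to 0.138, -0.119 to 0.0524 and 0.0518 to 0.196. The sign of the fibrillar median against parental is therefore not settled. The cause of the other changes was not tested. With 2 arrays per group, small changes of dim genes cannot be resolved.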
